A study of Mus musculus with 8 samples.

Results

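Voltage-gated sodium channels and the FGF homologous factors that bind them were examined in the neocortex of newborn mice after deletion of Bcl11a, a DNA-binding zinc finger protein of the projection neurons of the cortex. The 9 genes were taken as a named family, from the 19938 genes on the array, by an exact match of the gene symbol: 4 pore-forming alpha subunits (Scn1a, Scn2a, Scn3a and Scn8a), 2 auxiliary beta subunits (Scn2b and Scn3b) and 3 FGF homologous factors (Fgf12, Fgf13 and Fgf14). All 9 were measured. The mutant pups carried Bcl11a flox/flox with Emx1 IRESCre/+, and the control pups carried Bcl11a flox/+ with the same Emx1 IRESCre/+, 4 pups of each genotype at postnatal day 2. Both groups therefore carry the Cre, the controls lose 1 allele where it acts, and complete loss in that lineage is thus compared with partial loss. Cre from the Emx1 locus acts in the lineage of cortical excitatory neurons and much of the glia, so that interneurons, which arise elsewhere, keep their Bcl11a alleles. Layers II to IV were cut from frozen tissue with a laser, and total RNA of each pup was hybridised to its own array. In such bulk tissue, fewer cells of a type and less RNA per cell cannot be told apart.

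The alpha subunit of a voltage-gated sodium channel forms the pore that opens on depolarisation, carries the rising phase of the action potential and then inactivates within milliseconds. Beta subunits are single-pass membrane proteins that alter gating and take part in cell adhesion. FGF homologous factors resemble fibroblast growth factors in sequence but are not secreted: they bind the cytoplasmic tail of the alpha subunit, alter its inactivation and its density at the axon initial segment, and do not signal as growth factors do. In the rodent cortex the alpha subunits follow a developmental order, with Scn3a high before birth, Scn2a the main channel of young excitatory axons, and Scn1a and Scn8a increasing after birth.

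Values are log2 intensities, and differences are mutant minus control on that scale with the standard error (SE) of a limma fit over all 19938 genes. A gene is said to have risen or fallen when its Benjamini-Hochberg adjusted p over all of these genes was under 0.05. Correlations across genes between arrays of a genotype were at least 0.994, and control 1 had the lowest array weight, 0.556. Bcl11a itself read 8.56, 8.85, 8.37 and 8.75 in the mutants, against 10.59, 10.52, 10.34 and 10.34 in the controls. Its difference was -1.82 (SE 0.10, adjusted p = 4.9e-07). Where its probes lie relative to the deleted segment was not analysed here. In the 3 pups with high Xist, 3 genes of the Y chromosome read at most 4.31, which was taken as an empirical floor. All 8 readings of each of the 9 genes of the family lay above it, by at least 0.65. The 12 pan-neuronal and 7 excitatory neuron markers measured had means above the floor, while 6 of 9 microglial markers did not.

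Of the 9 genes, Fgf14 and Fgf13 fell, Scn1a rose and 6 did not pass the test. Across the array 4.15% of genes changed, 2.36% rising and 1.79% falling. That share counts dim genes, since 31.55% of all genes had means at or below the floor and none of the 9 did. Without the dimmest 50% of genes, 886 of 9969 changed (494 rose, 392 fell), and 4 of the 9. The shares over all genes below count dim genes as well. The median difference of the 9 was -0.06, against 0.02 over all genes, and the median size of difference was 0.17, against 0.07. Mutant and control values did not overlap for 4 of the 9, 2 with the mutants above and 2 with the mutants below, against 9.25% of all genes without overlap (5.46% above and 3.79% below). The fourth gene was Scn3b, which missed the threshold. Without control 1 or control 4, Scn3b passed as well and 4 of the 9 changed. Without mutant 3 or mutant 4, Scn1a did not pass and 2 of the 9 changed. For each of these 4 genes the exact two-sided permutation p was 0.0286, the smallest that 4 arrays against 4 can give.

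**Figure D1:**
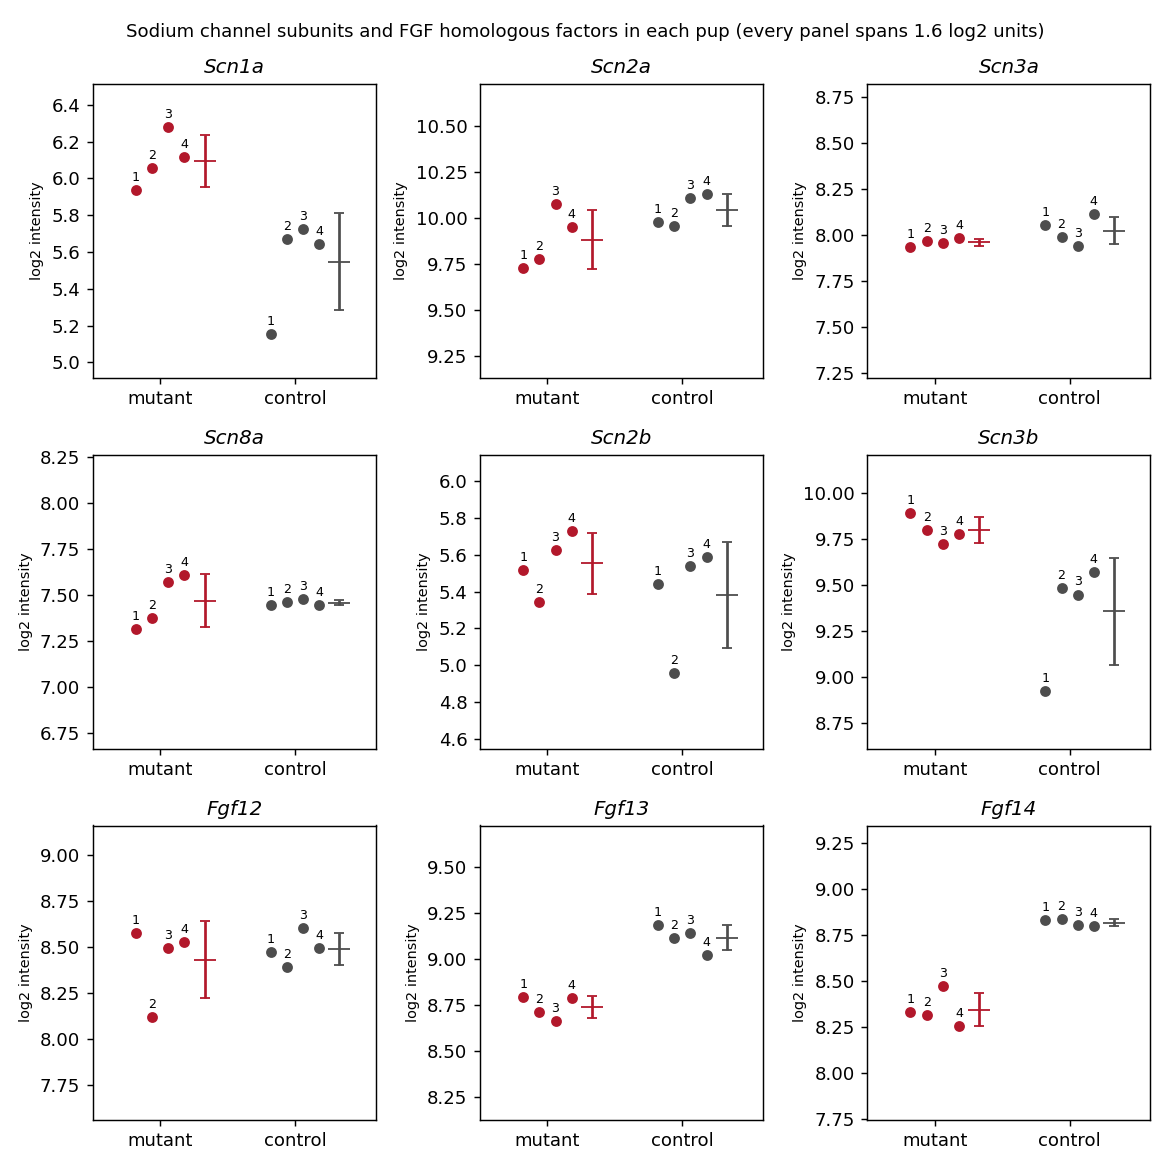
Log2 intensity (vertical axis) of each gene in each pup, mutant left and control right, with the replicate number at each point and the mean with its SD beside the points (n = 4 each). Fgf13 and Fgf14 are lower in all mutants, Scn1a and Scn3b are higher in all mutants, and control 1 is the lowest point of Scn1a and of Scn3b.

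**Figure D2:**
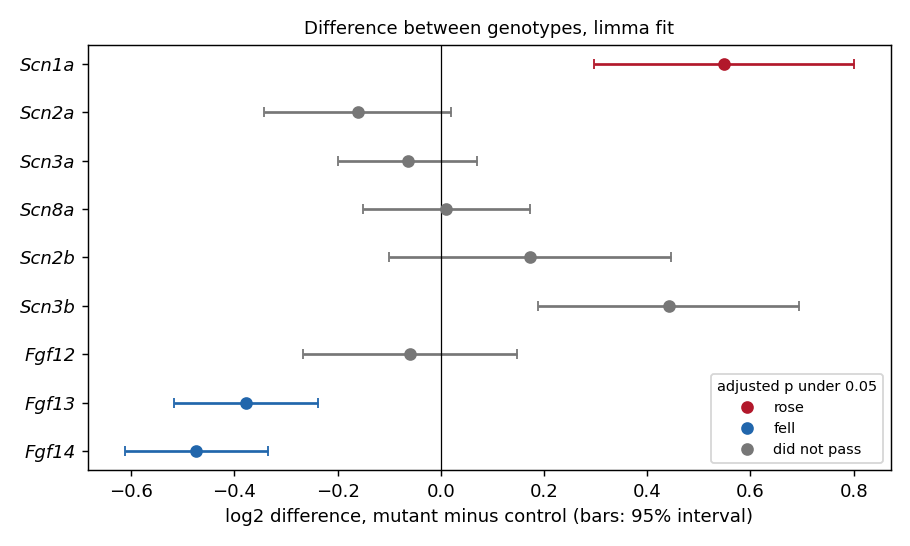
Log2 difference, mutant minus control, with its 95% interval from the limma fit, for each of the 9 genes down the page. The intervals of Scn1a and Scn3b lie above 0 and those of Fgf13 and Fgf14 below it, and those of the other 5 genes include 0. Scn3b is drawn as not passed because its adjusted p was 0.0543.

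Among the alpha subunits Scn1a alone passed, and it was higher in the mutant layers. Scn1a encodes the channel on which the fast firing of cortical inhibitory neurons depends and whose loss causes severe childhood epilepsy in humans. It read 5.94, 6.05, 6.28 and 6.12 in the mutants, against 5.15, 5.67, 5.73 and 5.64 in the controls. Every mutant lay above every control, and control 1 lay well below the other 3 controls. The means were 6.10 ± 0.14 in mutants and 5.55 ± 0.26 in controls (SD, n = 4 each), a 1.46-fold difference with a 95% interval of 1.23 to 1.74. On the log2 scale this was 0.55 (SE 0.12), and the adjusted p was 0.0157. Without control 1 it was 0.42 (adjusted p = 0.0102). The call was lost without mutant 3 (0.49, adjusted p = 0.0584), without mutant 4 (0.54, adjusted p = 0.0538) and when the variance was not moderated (adjusted p = 0.1995).

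In the same arrays the markers of interneurons, the cells best known for Scn1a, were mostly lower in the mutants. Npy, Dlx1 and Reln fell, which is 3 of 17 measured, against 1.79% of all genes, and the other 14 did not pass. By limma 10 of the 17 had an unadjusted p under 0.05, Calb2, which was higher, among them. Over the 17 the median difference was -0.19, with 12 below 0 and 5 above it. Npy differed by -1.63, and Calb2 by 0.86 (limma adjusted p = 0.122), with every mutant above every control for Calb2. Calb2 read 5.38 in control 1, against 6.72, 6.87 and 7.06 in controls 2, 3 and 4. The summed log2 level of the 17, which includes Npy and Calb2, was 112.89 to 113.79 in mutants and 114.72 to 118.06 in controls. Pvalb, the marker of the fast-firing class, read at or below the floor. Without control 1, 4 of these markers fell and 1 rose. Their part in the Scn1a result was not tested.

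Scn2a, the channel of young excitatory axons, was slightly lower in the mutants on every probe set, and none of these differences passed. The array carried 14 probe sets annotated to Scn2a alone, and the brightest of them represents the gene. It read 9.73, 9.77, 10.07 and 9.95 in the mutants, against 9.98, 9.96, 10.11 and 10.13 in the controls. The groups overlapped, since mutant 3 read above controls 1 and 2. The means were 9.88 ± 0.16 in mutants and 10.04 ± 0.09 in controls (SD, n = 4 each), with a log2 difference of -0.16 (SE 0.08, 95% interval -0.34 to 0.02, adjusted p = 0.434). Over the 14 probe sets the differences ran from -0.16 to -0.02 with a median of -0.12, and all 14 were below 0. They read the same 8 RNA samples, so they are not separate evidence of a change. The groups overlapped on 13 of the 14. The exception was the second brightest, which read 9.83, 9.71, 9.86 and 9.84 in mutants, against 9.88, 9.89, 10.02 and 10.08 in controls (difference -0.16, adjusted p = 0.322 over all probe sets). That was the smallest adjusted p among the 14, and 1 of the 14 had an unadjusted p under 0.05. The mean of the 14 was 9.12, 9.11, 9.17 and 9.15 in the mutants, against 9.09, 9.15, 9.35 and 9.39 in the controls. Controls 3 and 4 lay above every mutant on that mean, and control 1 below every mutant.

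**Figure D3:**
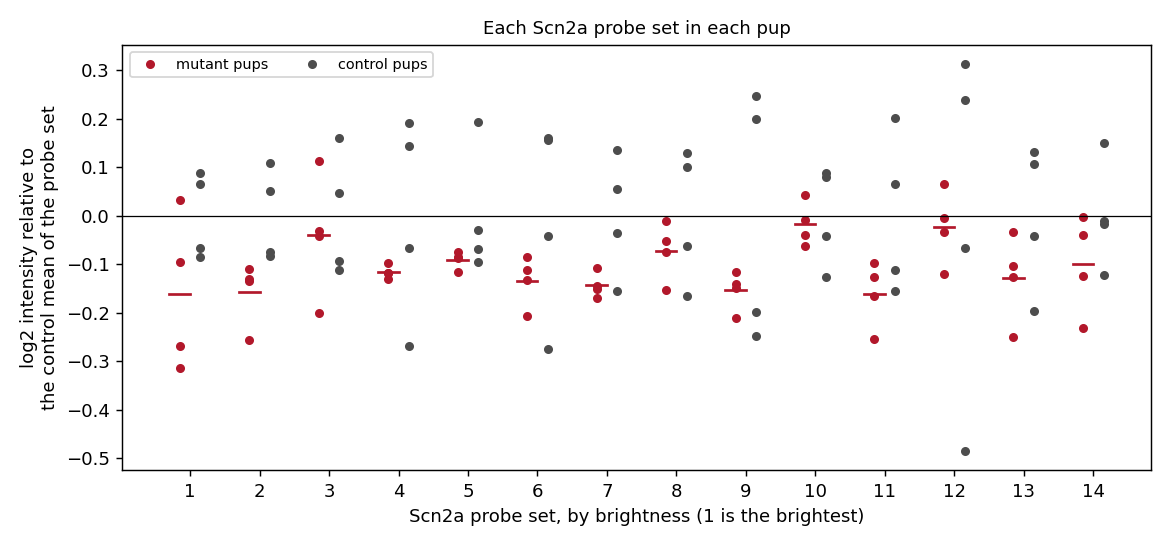
Log2 intensity of each Scn2a probe set in each pup relative to the control mean of that probe set (vertical axis), mutants left and controls right of each tick, with probe sets ordered by brightness and a line at the mutant mean. The mutant means lie between -0.16 and -0.02, and the points of the groups overlap on 13 of 14 probe sets.

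Scn3a, the channel of the embryonic brain, did not pass. It read 7.93, 7.97, 7.96 and 7.98 in the mutants, against 8.05, 7.99, 7.94 and 8.11 in the controls. The mutants were tightly grouped and control 3 lay among them. The log2 difference was -0.06 (SE 0.06, adjusted p = 0.750), with a 95% interval of -0.20 to 0.07.

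Scn8a, the channel of mature initial segments and nodes of Ranvier, read 7.32, 7.37, 7.57 and 7.61 in the mutants, against 7.44, 7.46, 7.48 and 7.45 in the controls. The controls lay within a narrow band, with mutants 1 and 2 below it and mutants 3 and 4 above it. The log2 difference was 0.01 (SE 0.07, 95% interval -0.15 to 0.17, adjusted p = 0.977), or -0.02 with array medians subtracted. The SD was 0.14 in mutants and 0.01 in controls (n = 4 each), a contrast in spread that was not tested.

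The alpha subunit genes are paralogs of similar sequence, and how far their probes cross-hybridise was not analysed here. Set against each other within each array, Scn1a moved apart from the other alpha subunits. The log2 ratio of Scn1a to Scn2a was higher by 0.71 in the mutants, that to Scn3a by 0.61 and that to Scn8a by 0.54. No mutant overlapped a control in these 3 ratios, while the groups overlapped for the 3 ratios among Scn2a, Scn3a and Scn8a. These ratios were chosen with the genes' differences known and carry no test.

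Of the beta subunits, Scn3b was higher in every mutant than in every control but missed the threshold. Scn3b encodes a beta subunit that associates with the channel without a covalent bond and is abundant in the developing brain. It read 9.90, 9.80, 9.72 and 9.78 in the mutants, against 8.93, 9.49, 9.45 and 9.57 in the controls. As with Scn1a, control 1 was the lowest array. The means were 9.80 ± 0.07 in mutants and 9.36 ± 0.29 in controls (SD, n = 4 each), with a log2 difference of 0.44 (SE 0.12, 95% interval 0.19 to 0.69, adjusted p = 0.0543). Without control 1 the difference was 0.30 and the adjusted p 0.0291, and without control 4 these were 0.51 and 0.0357. It also passed after quantile normalization (adjusted p = 0.0458), without the dimmest 30% or 50% of genes (0.0445 and 0.0391) and with an intensity trend and robust variances (0.0459). In 14 of 21 alternatives Scn3b did not pass. Among these were the omission of mutant 1 (limma adjusted p = 0.1379), Xist as a covariate (0.1047) and variances without moderation (0.2989).

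Scn2b, whose product is tied to the alpha subunit by a disulfide bond, read 5.52, 5.34, 5.62 and 5.73 in the mutants, against 5.44, 4.96, 5.54 and 5.59 in the controls. The groups overlapped and control 2 was the lowest array. Mutants minus controls gave a log2 difference of 0.17 (SE 0.13, adjusted p = 0.635), with a 95% interval of -0.10 to 0.45. Without control 2 it was 0.03.

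Of the FGF homologous factors, Fgf14 and Fgf13 fell and Fgf12 did not pass. Fgf14 encodes a factor concentrated at the axon initial segment, and mutations in the human gene cause an inherited ataxia. It read 8.33, 8.32, 8.47 and 8.26 in the mutants, against 8.83, 8.84, 8.81 and 8.80 in the controls. The controls lay close together, and every mutant lay below them. The means were 8.34 ± 0.09 in mutants and 8.82 ± 0.02 in controls (SD, n = 4 each). The level in the mutant tissue was 1.39-fold lower, with a 95% interval of 1.26 to 1.53. In log2 units the mutants differed by -0.47 (SE 0.06), with an adjusted p of 6.52e-04. With each array left out in turn it ran from -0.52 to -0.44, and the adjusted p reached at most 0.00377.

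Fgf13 is the X-linked factor of the family, and besides its action on sodium channels its product binds microtubules and takes part in the migration of cortical neurons in mice. It read 8.80, 8.71, 8.67 and 8.79 in the mutants, against 9.19, 9.11, 9.14 and 9.02 in the controls. Every mutant lay below every control. The means were 8.74 ± 0.06 in mutants and 9.12 ± 0.07 in controls (SD, n = 4 each), and the level in the mutant tissue was 1.30-fold lower, with a 95% interval of 1.18 to 1.43. This corresponds to -0.38 in log2 units (SE 0.06, adjusted p = 0.00357). With each array left out in turn the difference ran from -0.41 to -0.35 with an adjusted p of at most 0.0164. Because the gene is X-linked, the Xist reading of each array was also entered as a covariate. The difference was then -0.37 with an adjusted p of 0.01025. Xist was high in 1 mutant and 2 controls, so pups of both sexes stood in each group.

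Fgf12, which shares the family's channel-binding core, read 8.58, 8.12, 8.50 and 8.53 in the mutants, against 8.48, 8.39, 8.60 and 8.49 in the controls. Mutant 2 lay below all other arrays, and the remaining mutants lay within the control range. The log2 difference was -0.06 (SE 0.10, 95% interval -0.27 to 0.15, adjusted p = 0.876), and without mutant 2 it was 0.04. Within each array the log2 ratio of Fgf12 to Fgf14 was higher in every mutant than in every control, by 0.41 on average. The ratio of Fgf12 to Fgf13 was higher by 0.32, with mutant 2 inside the control range, and that of Fgf13 to Fgf14 by 0.10 with overlapping groups. Like those of the alpha subunits, these ratios were chosen with the genes' differences known and carry no test. Fgf11, the remaining homologous factor gene, had a log2 difference of -0.10 (SE 0.09, adjusted p = 0.708).

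**Figure D4:**
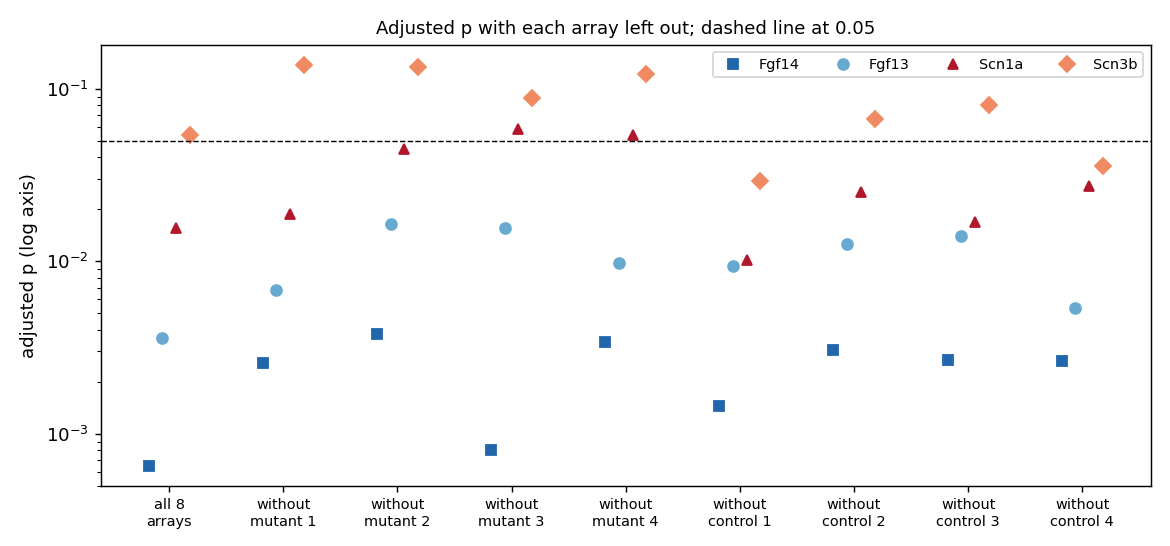
Adjusted p (log axis) of Fgf14, Fgf13, Scn1a and Scn3b with all 8 arrays and with each array left out in turn, the dashed line marking 0.05. Fgf14 and Fgf13 stay below the line at each omission, Scn1a is above it without mutant 3 or mutant 4, and Scn3b is below it without control 1 or control 4.

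The promoters of the genes that changed are shown here because 6 bases, TGACCA, are the core motif bound by BCL11A at the globin genes of human red cell precursors. RefSeq promoter windows of build GRCm38.p6 were matched by symbol for 7 of the 9 genes, 15 windows in all, and the 250 bases before each annotated start were searched on both strands (TGACCA or TGGTCA). Of 32851 windows of the same length in the table, 11.4% held the motif. Among the 15 windows 3 did: the only Fgf14 window, the only Scn1a window and 1 of 2 Scn8a windows. Matches are in capitals below, 5′ to 3′ on the strand of the gene.
Fgf14, chr14:124192547-124192796, minus strand: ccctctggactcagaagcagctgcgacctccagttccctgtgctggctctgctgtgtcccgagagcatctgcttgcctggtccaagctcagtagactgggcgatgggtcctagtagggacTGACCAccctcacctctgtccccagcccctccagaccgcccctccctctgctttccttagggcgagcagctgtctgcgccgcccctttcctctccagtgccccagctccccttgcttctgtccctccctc
Scn1a, chr2:66440838-66441087, minus strand: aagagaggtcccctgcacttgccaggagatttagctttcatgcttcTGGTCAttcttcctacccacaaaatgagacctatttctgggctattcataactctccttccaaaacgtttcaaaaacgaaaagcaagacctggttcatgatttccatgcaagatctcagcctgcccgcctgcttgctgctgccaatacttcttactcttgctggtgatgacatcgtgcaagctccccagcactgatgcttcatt
Scn8a, chr15:100870395-100870644, plus strand: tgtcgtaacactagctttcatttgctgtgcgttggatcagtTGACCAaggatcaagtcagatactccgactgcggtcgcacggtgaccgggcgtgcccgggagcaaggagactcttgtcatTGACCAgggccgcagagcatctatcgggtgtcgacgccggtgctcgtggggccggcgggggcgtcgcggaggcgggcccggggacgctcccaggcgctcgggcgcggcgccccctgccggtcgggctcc
Fgf13, chrX:59585573-59585822, minus strand: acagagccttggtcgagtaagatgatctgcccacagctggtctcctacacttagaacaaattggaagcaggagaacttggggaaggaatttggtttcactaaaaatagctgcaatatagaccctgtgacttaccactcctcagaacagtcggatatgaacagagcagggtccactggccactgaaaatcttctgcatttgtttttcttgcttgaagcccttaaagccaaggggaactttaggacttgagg
The Fgf14 match begins 130 bases before the annotated start and that of Scn1a, on the opposite strand, 204 bases before it. Scn8a, which did not pass the test, held 2 matches, at 209 and 129 bases before the start. None of the 4 Fgf13 windows held the letters, and the window of its outermost start is shown for comparison. Fgf14, which fell, and Scn1a, which rose, thus each held 1 match. A match of letters is a description of the sequence and not a bound site. TTCCNNGAA, letters of the motif of Bcl6, which overlapped no TGACCA match here, stood in 2 of the 15 windows (1 of Scn2a and that of Scn2b) and in 4.1% of all windows. The Fgf13 windows differed in composition, with a GC content of 74.4% and 74.8% at 2 of its starts and 40.4% and 45.6% at the other 2, against a median of 52.4% over all windows. The array's single Fgf13 probe set does not tell these starts apart.

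Of the other sodium channel genes, none of 7 measured passed by limma, with a median difference of -0.05 and 3 genes at an unadjusted p under 0.05. The exact list held Scn4b, Scn7a, Scn9a, Scn10a and Scn11a, the leak channel gene Nalcn and Fgf11, and 4 of the 7 had means at or below the floor (Scn4b, Scn7a, Scn10a and Scn11a). Scn9a, best known from pain-sensing neurons, read 5.32, 5.07, 4.90 and 5.21 in the mutants, against 4.77, 4.72, 4.72 and 4.93 in the controls. Mutant 3 fell inside the control range, and the log2 difference of 0.34 (SE 0.09) missed the threshold with an adjusted p of 0.0545. It passed without mutant 3 (0.41, adjusted p = 0.0174) and without control 4 (0.39, adjusted p = 0.0435). In 15 of the 20 alternatives that kept Scn9a it did not pass, with a limma adjusted p of up to 0.2433. With the mean of its probe sets in place of the brightest, the difference was 0.26 (adjusted p = 0.07355). Nalcn, whose channel sets resting excitability, had a difference of -0.18 (SE 0.07, adjusted p = 0.178), with every mutant below every control.

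Of 11 measured genes of the axon initial segment, where sodium channels are anchored, 1 fell, 0 rose and 10 did not pass, and the median difference was -0.06. The gene that fell was Nrcam, an adhesion molecule that is clustered with the channels by ankyrin G. It read 8.65, 8.55, 8.65 and 8.68 in the mutants, against 9.13, 8.93, 8.96 and 9.08 in the controls, with no overlap and a log2 difference of -0.39 (SE 0.07, adjusted p = 0.00365). The scaffold itself did not pass: Ank3, the gene of ankyrin G, had a difference of -0.16 (adjusted p = 0.268) and Sptbn4, the gene of its spectrin partner, one of -0.05 (adjusted p = 0.916). These 2 genes were named after their values had been seen.

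Of 13 measured genes whose products bind or modify the channels or the FGF homologous factors, none passed by limma, with a median difference of 0.06 and 2 genes at an unadjusted p under 0.05. Nedd4l, a ubiquitin ligase that removes sodium channels from the membrane, had a difference of 0.24 (SE 0.07, adjusted p = 0.121). Tnc, the gene of the matrix protein tenascin C, had one of 0.45 (SE 0.14, adjusted p = 0.126). Tnc read 8.66, 9.29, 9.31 and 9.21 in the mutants, against 8.37, 8.64, 8.95 and 8.72 in the controls, so that mutant 1 alone fell inside the control range. Without mutant 1 it passed (0.60, adjusted p = 0.00975). In 19 of 21 alternatives Tnc did not pass, with a limma adjusted p of up to 0.4259.

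Genes that act on channel transcripts moved both ways: 1 of 10 rose, 1 fell and the remaining 8 missed the threshold, with a median difference of -0.01. Rbfox3, a neuronal splicing factor, fell. It read 9.23, 9.03, 9.20 and 9.15 in the mutants, against 9.94, 9.72, 9.76 and 9.70 in the controls, with a log2 difference of -0.63 (SE 0.07, adjusted p = 2e-04). Celf4, an RNA-binding protein whose targets in mouse brain include Scn8a transcripts, rose. It read 9.68, 9.82, 9.73 and 9.66 in the mutants, against 8.87, 9.17, 9.30 and 9.33 in the controls, with a log2 difference of 0.56 (SE 0.09, adjusted p = 0.00320). Its call was lost when the variance was not moderated (adjusted p = 0.0928). Rest, the repressor that silences sodium channel genes outside neurons, read near the floor and did not pass (difference -0.16, adjusted p = 0.355), and it too was named after its values had been seen.

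The secreted fibroblast growth factors are relatives in sequence of the homologous factors and act through surface receptors. Of 23 genes of these factors and receptors measured, 3 rose and 0 fell. The other 20 missed the threshold, and the median difference was 0.04. Fgf5, a growth factor of the embryo and the hair follicle, read 6.04, 6.13, 6.03 and 6.08 in the mutants, against 5.52, 5.59, 5.60 and 5.66 in the controls (difference 0.48, SE 0.06, adjusted p = 4.57e-04). Fgf18, a growth factor also known from bone, rose by 0.55 (SE 0.09, adjusted p = 0.00379), and Fgfr1, a receptor of the secreted factors, rose by 0.34 (SE 0.07, adjusted p = 0.00950). Mutant and control values did not overlap for these 3 genes, against 9.25% of all genes without overlap. The same held for 2 genes that did not pass by limma. These were Fgf23, with the mutants above, and Fgf21, with the mutants below and a mean at or below the floor. The calls of Fgf18 and Fgfr1 were lost when the variance was not moderated (adjusted p = 0.0987 and 0.0521). Whether the secreted and the homologous factors differ in response was not tested.

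**Figure D5:**
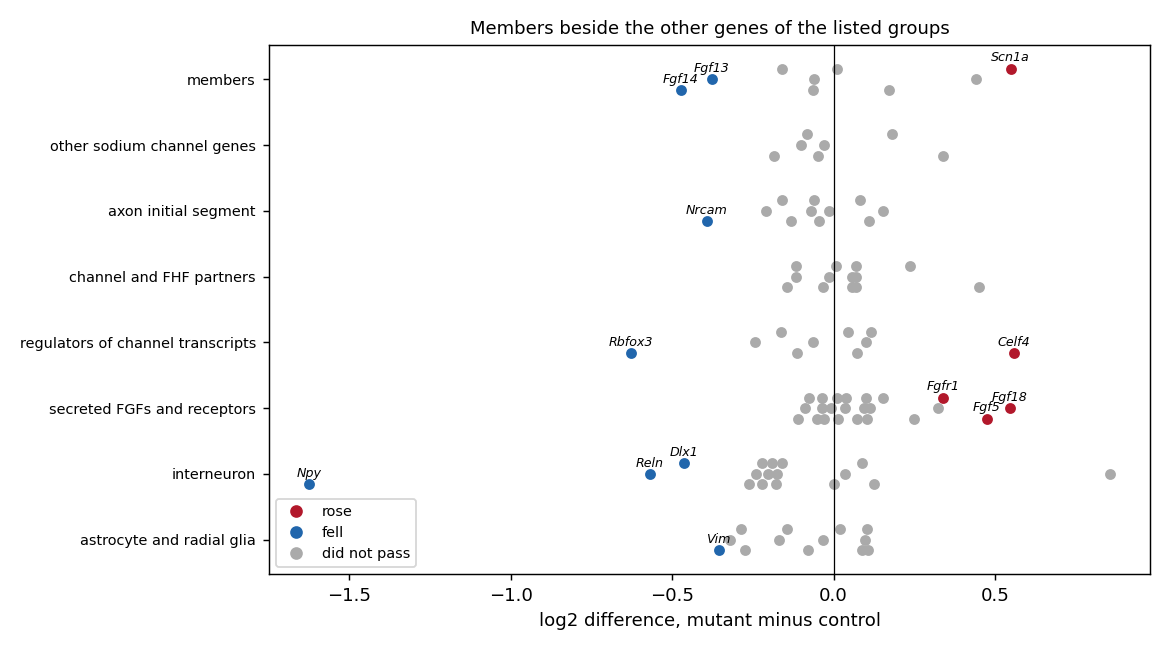
Log2 difference, mutant minus control (horizontal axis), of each gene in the 9-gene family and in 7 lists of other genes; each point is 1 gene and vertical offsets only separate points. Genes that rose or fell are coloured and named: Scn1a on the right and Fgf13 and Fgf14 on the left of the top row, and Fgf5, Fgf18 and Fgfr1 on the right among the secreted factors.

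Other cell types were read through their markers in the same arrays. Of 12 pan-neuronal markers 2 fell (Snap25 and Rbfox3), 0 rose and 10 did not pass. The median difference of the 12 was -0.01, with 5 above 0 and 7 below it. Their summed log2 level was 113.38 to 114.25 in mutants and 114.36 to 115.82 in controls. These sums include Snap25, which differed by -0.82, and Rbfox3, which differed by -0.63. Of 13 astrocyte and radial glia markers 1 fell (Vim) and 12 did not pass, with sums of 92.82 to 95.4 in mutants and 93.61 to 96.32 in controls. Of 10 endothelial and mural markers 1 fell (Abcc9) and 9 did not pass, with sums of 64.06 to 65.92 in mutants and 65.96 to 66.8 in controls. Of 7 excitatory neuron markers Neurod6 rose, Slc17a6 and Emx1 fell and 4 did not pass, and of 7 Cajal-Retzius markers 1 fell (Reln). The oligodendrocyte lineage, microglial and meningeal lists had no call by limma among 8, 9 and 8 genes measured, with 2, 1 and 1 genes at an unadjusted p under 0.05. With 1 array left out, the call of Emx1 was lost without mutant 2, mutant 3, mutant 4 or control 4, at adjusted p of 0.0587 to 0.0891 by limma. That of Vim was lost without mutant 2, mutant 4, control 2 or control 3, and that of Reln without mutant 2, mutant 3 or control 2, 3 or 4. Abcc9 lost its call without any single array other than mutant 3 or control 2. Snap25, Rbfox3, Neurod6 and Slc17a6 kept theirs at each omission, and Slc17a6 missed when the variance was not moderated (adjusted p = 0.0537). The part of these markers in the falls of Fgf13 and Fgf14 was not tested.

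The genes whose profiles over the 8 arrays lay closest to those of the changed genes were found by the root mean square distance between log2 values, each taken relative to the control mean of its own gene, among 13647 other genes with means above the floor. Nearest to Fgf14 were Cyria, Mbnl1, a splicing factor, and Mef2c, a transcription factor of excitatory neurons, at distances of 0.057, 0.059 and 0.064. The median distance over all genes compared was 0.37. Mef2c read 12.02, 11.88, 12.01 and 11.81 in the mutants, against 12.46, 12.34, 12.32 and 12.32 in the controls. Nearest to Fgf13 were Zfp365, Ppp3ca, the catalytic subunit of the phosphatase calcineurin, and Syndig1l, at 0.060, 0.061 and 0.062 (median 0.305). Nearest to Scn1a were Grik2, a kainate receptor subunit, Pkp4, a plakophilin of cell junctions, and Sesn3, a sestrin, at 0.076, 0.087 and 0.089 (median 0.43). Grik2 read 8.50, 8.43, 8.71 and 8.42 in the mutants, against 7.51, 8.05, 8.17 and 8.13 in the controls, and like Scn1a was lowest in control 1. All 9 of these genes passed the test themselves. The distance counts the difference between genotypes as well as the scatter within them.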

How the data were processed

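Neocortical layers II to IV from 8 pups were profiled on GeneChip Mouse Gene 1.0 ST arrays, 1 per pup, and BRB-ArrayTools was used, per the labels. The deposited values were taken as log2 intensities that the authors had normalized between arrays. The lowest was 2.03 and the highest 13.8, and the medians of the arrays lay between 4.83 and 4.91. How the background was corrected, how arrays were normalized and probes summarised, which base the logarithm has and which genome build was used is not given in the sources used here. A different base would alter the fold changes and leave the tests as they are.

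Of 35556 probe sets, 21789 had 1 symbol in the platform annotation, 1621 had several and 12146 are unnamed here. By Entrez Gene identifier 21698 matched the gene table of GRCm38.p6, and 0 symbols changed. The brightest 1-symbol probe set over the 8 arrays represented each of 19938 genes, with no filter. The comparison used limma 3.58.1 (R 4.3.3) on genotype alone, with moderated variances (6.91 prior degrees of freedom), two-sided tests and Benjamini-Hochberg adjustment over all genes. The procedure was tested on simulated data. Precision is limited by the number of arrays: the median SE of a difference was 0.0766. Nothing in the labels ties a replicate number to a shared litter or day.

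The family and the gene lists were chosen with earlier results of these data known. Named are the 9 genes, Bcl11a, up to 4 changed genes of each list by size (or the 2 with the smallest adjusted p where none passed), and the 3 nearest profiles of each changed gene; marker genes that changed were named as well, and Pvalb, Fgf11 and a few others were named after their values were seen. Alternatives covered normalization, filters, probe sets, array weights, variance, thresholds, covariates and the omission of each array.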

Additional observations from a re-analysis of the deposited data

Results flagged for a closer look

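In 40 groups of 4 pups (20 named genes in each genotype) the distance of the outermost pup to its nearest neighbour was compared with the whole range of the group, and 2 groups exceeded Dixon's 95% critical value. Chance flags about 1 in 20 groups. In Scn1a, control 1 read 5.15 against 5.64 to 5.73 in the other controls, a ratio of 0.854. In Tnc, mutant 1 read 8.66 against 9.21 to 9.31 in the other mutants, a ratio of 0.837.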

How the results depend on the processing

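Over 21 alternatives, the number of changed genes of this family stayed between 2 and 4, and between 2 and 4 with any 1 array left out. Fgf13 and Fgf14 kept direction and call in all 21, at adjusted p of up to 0.0303 and 0.0163, and Scn1a kept its direction in all and its call in 17. Over all genes, 827 changed (470 rose, 357 fell), against 249 when the variance was not moderated and 447 at an adjusted p under 0.01, and 584 to 814 with any 1 array left out. With each array's median subtracted, 386 rose and 459 fell. Pairing by replicate number is not given by the labels and was not adopted, since 1 of 4 correlations of same-numbered deviations from the group means was under 0.1 (0.11, 0.06, 0.30 and 0.15 for numbers 1 to 4). All 4 were positive, and mutants 1, 3 and 4 matched the control of their own number best while mutant 2 matched control 4, a hint from the data and not the design. With the replicate number as a block, 987 genes changed, and 3 of the 9 (1 rose, 2 fell). No call among the 9 genes changed with the block, while Scn9a (adjusted p = 0.0230) and Tnc (0.00487) passed. At readings near the floor, such as those of Scn4b or Rest, signal cannot be told from background.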

Other observations

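On the array 3 probe sets were annotated to several channel genes at once and were left out of the comparisons. The probe set shared by Scn2a, Scn9a and Scn3a read 7.72, 7.84, 7.92 and 7.89 in the mutants, against 7.81, 7.88, 8.21 and 8.17 in the controls (difference -0.17, SE 0.09, adjusted p = 0.467 in a limma fit over all named probe sets). That shared by Scn9a and Scn3a averaged 8.002 ± 0.146 in mutants and 7.904 ± 0.179 in controls (SD, n = 4 each). That shared by Scn3a and Scn1a averaged 7.61 ± 0.12 in mutants and 7.56 ± 0.21 in controls (SD, n = 4 each), with an adjusted p of 0.903, whereas the Scn1a probe set alone rose.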
